A study of Mus with 4 samples.

Results

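These genes carried an m6A peak in interscapular brown adipose tissue (iBAT) of Wtap-BKO mice and none in iBAT of Wtap flox/flox mice. They were chosen by the presence of peaks alone: every Ensembl gene identifier in the Wtap-BKO peak list that stood nowhere in the Wtap flox/flox list was taken. This gave 1699 of the 11431 genes with a peak in either list, or 14.9%. A further 8014 genes stood in both lists, and 1718 stood only in that of Wtap flox/flox mice. Both groups of mice were 8 weeks old, on the C57BL/6 background and homozygous for the floxed Wtap allele. Wtap-BKO mice carried Ucp1-iCre in addition, in which an IRES-Cre cassette follows the coding exons of Ucp1, so that recombination was directed to cells that transcribe Ucp1. The study checked the deletion by immunoblot of whole tissues, and found WTAP lost in iBAT but not in others such as liver and brain. It reported no such check for the immune, endothelial, stromal or muscle cells within iBAT. Each genotype was measured as 1 m6A immunoprecipitate (IP) and 1 input, each pooled from 8 mice, and the authors called peaks within each genotype.

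N6-methyladenosine (m6A) is the most abundant internal modification of mRNA. It is written in the nucleus by a complex around METTL3 and METTL14, in which WTAP is the regulatory subunit that brings the complex to its targets. In MeRIP-seq, RNA fragments bound by an antibody against m6A are sequenced beside the input RNA, and a peak marks a transcript segment enriched in the IP. A peak can be called only where the transcript is present and covered by reads, and the deposited lists hold no read totals, so the depth of either genotype is unknown. A gene absent from the Wtap flox/flox list therefore had no peak past the threshold there, at a depth that is not known. With 1 pooled sample per genotype there is no spread between mice to set a difference against, and all intervals given are 95% intervals for counting error only. Wtap itself was not among the genes described, since it carried 4 peaks in each list. Those peaks do not measure its transcript, and they do not check the genotype labels. The Wtap-BKO list contained 18693 peaks on 9713 genes, and the Wtap flox/flox list 18400 peaks on 9732 genes.

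Most of the 1699 genes carried a single peak. One peak was found on 1386 genes (81.6%, Wilson interval 79.7% to 83.3%), 2 peaks on 254, 3 on 48, 4 on 10 and 5 on 1. The 2083 peaks made up 11.1% of the Wtap-BKO list, a mean of 1.23 per gene. On genes found in both lists, 43.8% carried 1 Wtap-BKO peak, the mean was 2.07 and the highest number was 19. The genes found in the Wtap flox/flox list only were close to their Wtap-BKO counterparts, as 79.3% of them carried 1 peak and the mean was 1.26. A gene with many peaks is unlikely to miss the other list altogether, so the difference from genes in both lists is in part set by how the genes were chosen. On 16 genes the list held peaks that shared bases with another peak of the same gene, and merging these left 2067 separate places and 82.4% of genes with 1 place.

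The gene with most peaks was ENSMUSG00000073902, which has no symbol in the list and carried 5 peaks on chromosome 7. The strongest of these lay at chr7:106596803-106597072 of GRCm38 on the minus strand, with a 39.4-fold enrichment of IP over input. Its log10 false discovery rate (FDR) was -10.5, and the weakest of the 5 stood at -1.92. In all, 10 genes carried 4 peaks each. Lmod2, which encodes leiomodin 2, an actin nucleator of striated muscle thin filaments, had peaks of 180, 240, 151 and 211 exonic bases with enrichments of 19.7, 8.8, 4.55 and 8.34. Utrn, the gene of the dystrophin relative utrophin, had 4 peaks between 2.02-fold and 13.7-fold, 3 of which were split over exon junctions. Hpgds, hematopoietic prostaglandin D synthase, carried the largest peak territory of all 1699 genes, with 1257 exonic bases in 4 peaks. These peaks were enriched 9.1-fold to 22-fold, and the longest lay at chr6:65117413-65117950 on the minus strand.

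The other genes with 4 peaks belonged to several kinds of cell function. Ifi209, an interferon-inducible gene of the PYHIN family, had 898 bases in peaks of 6.07-fold to 19.7-fold. Vcan, the matrix proteoglycan versican, had 721 bases at 12.1-fold to 18.2-fold, and Zfpm2, a cofactor of GATA transcription factors, had 903 bases at 5.56-fold to 15.9-fold. Map1a, a microtubule-associated protein, and Myh14, a non-muscle myosin heavy chain, both had a strongest log10 FDR of -3.55. Arhgef1 and Acsf2, a mitochondrial acyl-CoA synthetase, reached -5.1 and -4.57. None of the 10 genes with 4 peaks had a peak with a log10 FDR beyond that of Lmod2, at -7.83.

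Among the genes with 3 peaks, ordered by strength, Cxcl9 came first. Cxcl9 encodes an interferon-induced chemokine that attracts T cells through CXCR3. Its 3 peaks had enrichments of 3.15, 3.59 and 2.95, and the middle one, spliced over 3 blocks at chr5:92323765-92326724, reached a log10 FDR of -30.2. Prn and Prnd, which follow with 3 peaks each, share the same bases of chromosome 2 and cannot be counted as separate signals. The strongest Prnd peak, at chr2:131953931-131954347, differed from that of Prn by a few bases at each end, and the enrichments were 30.3 and 33.4. Scp2, the sterol carrier protein 2 gene, had enrichments of only 1.48 to 2.76. Ifi205, a second PYHIN gene, reached a log10 FDR of -10.9, and Mllt3, a chromatin reader of the super elongation complex, reached -10.1. Syn3, Gps2 and Tagln2 completed the 20 genes with most peaks, at strongest log10 FDR values of -8.72, -8.19 and -8.02.

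**Figure D1:**
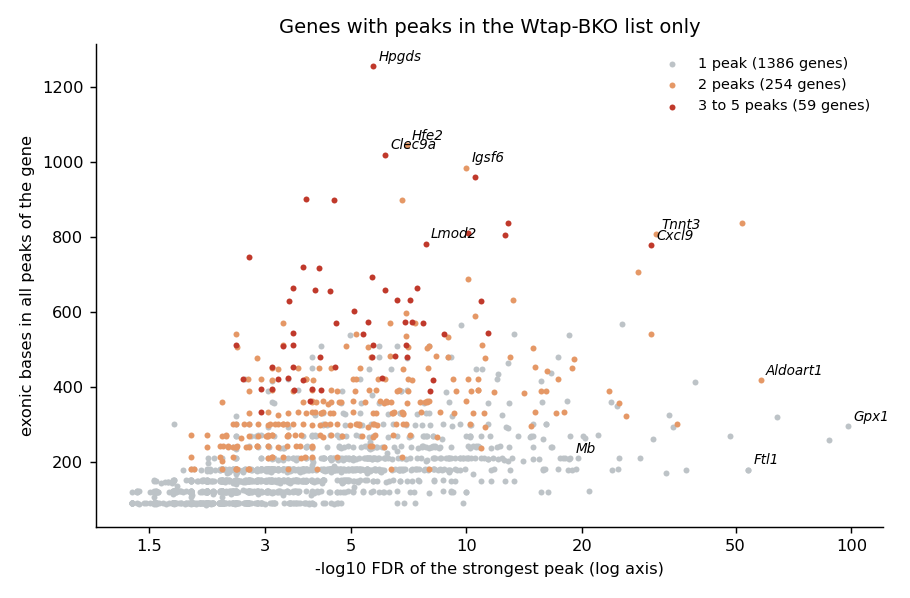
Each point is 1 gene with peaks in the Wtap-BKO list only, placed by the -log10 FDR of its strongest peak (log axis) and by the exonic bases of all its peaks, and coloured by its number of peaks. The 2 mitochondrially encoded genes, with an FDR of 0, are left out. Most points lie at the lower left, Hpgds stands highest at 1257 bases, and Gpx1 lies farthest right.

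Peaks on these genes were short. The median covered 151 exonic bases (25th percentile 120, 75th percentile 209), within a range of 85 to 895. On genes in both lists the median Wtap-BKO peak covered 211 bases and the median Wtap flox/flox peak 241. On genes found in the Wtap flox/flox list only the median peak covered 180. Only 41 peaks (1.97%) of the genes described here reached 400 bases, against 19.5% of Wtap-BKO peaks on genes in both lists. At like strength the lengths were nearly those of Wtap-BKO peaks on genes in both lists. At a log10 FDR between -1 and -3 the medians were 121 and 121 bases, between -3 and -5 they were 179 and 180, and between -5 and -10 they were 209 and 211. Beyond that they parted, with 239.5 against 300 bases down to -20 and 265.5 against 420 past -20, where the genes in the Wtap-BKO list only had 40 peaks.

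The 10 longest peaks included those of several genes known from muscle or immune cells. Hfe2, the gene of the BMP co-receptor hemojuvelin, had the longest, 895 bases at chr3:96528256-96529150 with a 16.3-fold enrichment. Igsf6, an immunoglobulin superfamily gene, followed with 805 bases at 10.1-fold. Tnnt3, fast skeletal troponin T, had a peak of 598 bases spread over 8 blocks. Arhgap45 had 568 bases at 13.5-fold with a log10 FDR of -25.3, and Apobec2, a gene expressed in striated muscle, had 565 bases. Slc11a1, a metal transporter of phagosomes, had 539 bases with a log10 FDR of -18.5. Clec9a, a dendritic cell receptor for dead cells, came after Hpgds and Hfe2 in total length, with 1020 bases in 3 peaks.

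**Figure D2:**
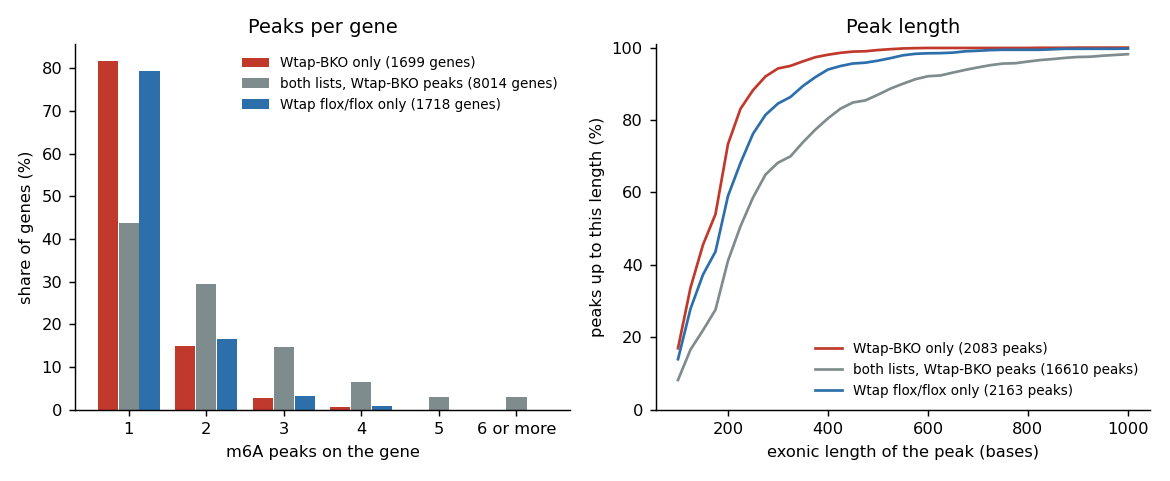
Left, the share of genes by the number of peaks they carried; right, the cumulative share of peaks up to a given exonic length. Genes in the Wtap-BKO list only (81.6% with 1 peak, median 151 bases) lie near genes in the Wtap flox/flox list only (79.3%, 180 bases) and away from genes in both lists (43.8%, 211 bases).

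Peaks on these genes were also weak by FDR, and their enrichment was higher only among the weaker peaks. The median log10 FDR was -3.34, against -7.12 for Wtap-BKO peaks on genes in both lists, while the median enrichment was 5.69-fold against 4.55-fold. At a log10 FDR between -1 and -3 the median enrichments were 7.96-fold against 3.92-fold, and down to -5 they were 6.22-fold against 3.86-fold. Down to -10 they were 3.79-fold against 3.93-fold, and down to -20 they were 4.395-fold against 4.76-fold. Past -20 they were 3.115-fold against 6.44-fold. When all Wtap-BKO peaks were cut into 5 equal bins by FDR, the genes described here held 1.07% of the strongest bin, then 4.79%, 10.8% and 15.7%, and 23.4% of the weakest. The weak end carried values that recur. In 704 of the 2083 peaks (33.8%, interval 31.8% to 35.9%) the enrichment, p-value and FDR were all the same as in at least 9 other peaks of the list. The share was 11.6% on genes in both lists (interval 11.1% to 12.1%), and 32.4% on genes in the Wtap flox/flox list only. The most frequent such value, an enrichment of 12.1 with a p-value of 0.00098, was shared by 136 peaks, of which 46 lay on genes in the Wtap-BKO list only. Enrichments of 11.4, 12.9, 13.7 and 14.4 recurred in the same way, at nearly even steps. On 526 genes (31%) every peak had such a recurring value.

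As the limit on a gene's strongest peak was tightened, genes found in 1 list only became scarcer, and faster in the Wtap-BKO list. At an FDR under 1e-05, 531 of 6748 Wtap-BKO genes (7.87%, interval 7.25% to 8.54%) had no Wtap flox/flox peak, against 758 of 7270 Wtap flox/flox genes (10.4%, interval 9.74% to 11.1%) with no Wtap-BKO peak. Under 1e-10 the numbers were 159 and 399, and under 1e-20 they were 35 and 184. At the threshold of the deposited lists the shares were 17.5% and 17.7%, with overlapping intervals.

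**Figure D3:**
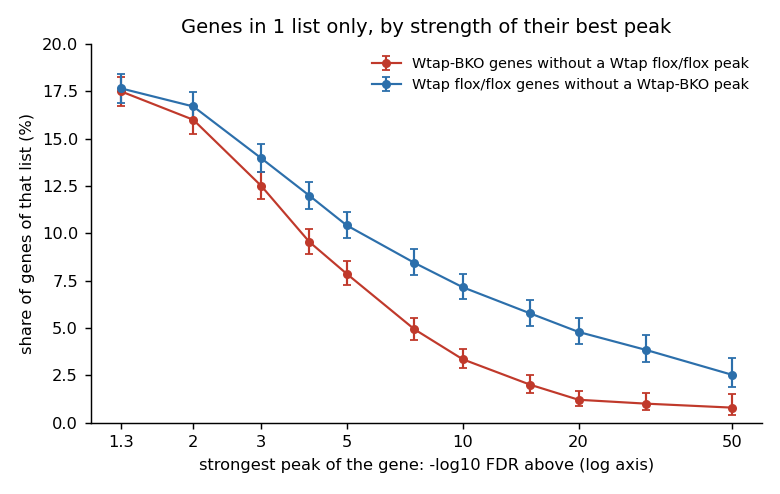
Share of the genes of each list that had no peak in the other list (with 95% Wilson intervals), against the limit set on the -log10 FDR of the gene's strongest peak (log axis). The curves start together at 17.5% and 17.7% and part to 1.22% and 4.8% at 20.

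The genes with the strongest peaks included several with close copies elsewhere in the genome. The mitochondrially encoded mt-Nd1 and mt-Co1, subunits of respiratory complexes I and IV, had peaks with an FDR of 0. The single mt-Nd1 peak was enriched 3.05-fold, and the 2 mt-Co1 peaks 1.3-fold and 86.5-fold. Gpx1, glutathione peroxidase 1, came next with a peak of 295 bases at chr9:108339050-108339344, 7.58-fold and a log10 FDR of -97.7. Aldoart1, a retrogene of aldolase A, carried a pair of overlapping peaks of 209 bases, enriched 1.69-fold and 1.7-fold. Ftl1, the ferritin light chain, had a peak of 179 bases on the minus strand of chromosome 7 at 1.58-fold. The unnamed ENSMUSG00000110350 had a peak on the plus strand at chr7:45459647-45459825, shifted by a single base from that of Ftl1, at 1.57-fold. These are not separate signals unless the counting used strand, which is not given in the sources used here. Of the 10 genes with the strongest peaks, 5 had no symbol. For transcripts with near-identical copies, such as Aldoart1, Ftl1 and the mitochondrial genes with their nuclear copies, assignment of reads to a gene is uncertain.

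Reads could belong to another gene in other cases too. On the same strand, 50 of the 1699 genes had a peak overlapping that of a different gene in the Wtap-BKO list, 30 of them with another gene of the 1699. On the opposite strand, 134 genes (7.89%) had such a peak, against 9.36% of genes in both lists. With a Wtap flox/flox peak on either strand, 26 of the 1699 genes shared bases. In 2 of them, Epo and Gm20498, the Wtap flox/flox peak lay on the same strand and was assigned to a different gene. The symbols U2af1l4 and Zfp865 each had a Wtap flox/flox peak under a second identifier.

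Genes without a symbol were more frequent here than among genes in both lists. They numbered 361 (21.2%), against 7.41% of genes in both lists and 20.6% of genes in the Wtap flox/flox list only. Of the 1338 with a symbol, 29 were numbered Gm predictions and 22 Riken clones. Chromosome and symbol were matched for 1292 in RefSeq genes of the GRCm38.p6 assembly, and 1271 of these were protein coding. Per chromosome, the share of genes in the Wtap-BKO list only lay between 11.7% on chromosome 15 and 20.7% on chromosome X (interval 16.7% to 25.5%), apart from the sparse Y chromosome and mitochondrial genome.

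Peaks of these genes crossed exon junctions more often than those of their Wtap flox/flox counterparts. In the Wtap-BKO list only, 445 of 2083 peaks (21.4%, interval 19.7% to 23.2%) were split over several blocks. The share was 19.6% for Wtap-BKO peaks on genes in both lists, and 9.8% (interval 8.62% to 11.1%) on genes in the Wtap flox/flox list only. For Wtap flox/flox peaks on genes in both lists it was 16.2%, so the 2 lists also differed on shared genes. The gap to Wtap-BKO peaks on genes in both lists varied with strength. The shares were 15.8% against 14.9% at a log10 FDR between -1 and -3, 19.7% against 15.3% down to -5, 31.4% against 19.7% down to -10 and 34.8% against 20.8% down to -20. Past -20 the order was reversed, with 20% of 40 peaks against 26.2%. Tnnt3 was an example, as both of its peaks were spread over 8 blocks, at 7.48-fold and 2.81-fold.

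Peak position was measured along the genome, from the centre of a peak to each end of its gene, in genes of at least 3000 bp. Of 1444 peaks, 376 (26%, interval 23.8% to 28.4%) lay within 1000 bp of the 3' end and 195 (13.5%) within 1000 bp of the 5' end. For Wtap-BKO peaks on genes in both lists the shares were 18.5% and 11.2%. The difference was 7.53 percentage points at the 3' end (Newcombe interval 5.24 to 9.94) and 2.34 points at the 5' end (interval 0.588 to 4.26). Peaks on genes in the Wtap flox/flox list only were nearer still to the 3' end, with 33.5% within 1000 bp, and rarer at the 5' end, with 9.29%. Gene spans were similar, with a median of 21286 bp against 24738 bp for genes in both lists. On the 313 genes with several peaks, the median distance from the first to the last was 2702 bp, and on 45 of them neighbouring peaks were under 100 bp apart or shared bases.

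**Figure D4:**
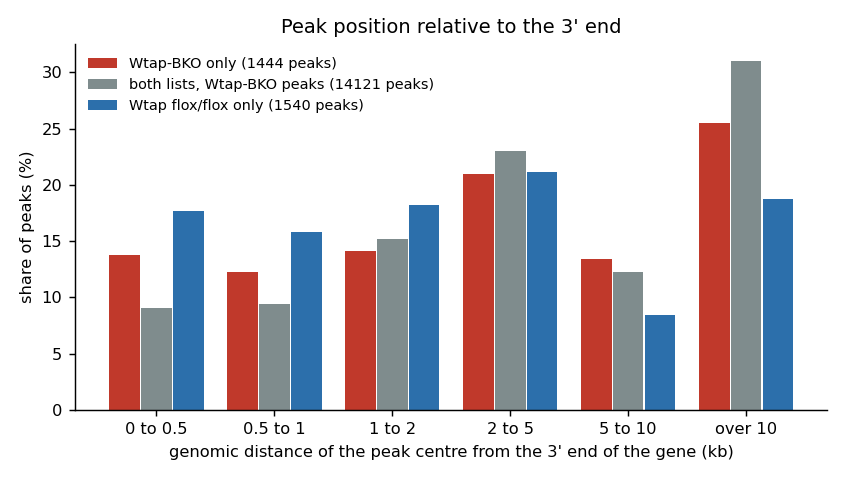
Share of peaks by genomic distance of the peak's centre from the 3' end of its gene, for genes of at least 3000 bp. Genes in the Wtap-BKO list only held 13.8% of their peaks in the last 500 bp, between the 9.08% of genes in both lists and the 17.7% of genes in the Wtap flox/flox list only.

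The cell types that the genes mark were read from lists of marker genes. Of all gene identifiers with a symbol and a peak in either list, 13.2% were in the Wtap-BKO list only and 13.5% in the Wtap flox/flox list only. Each count is to be read against these shares. When only peaks with an FDR under 1e-05 counted in both lists, the former share was 13.1%. The shares are not matched for peak strength. Genes in the Wtap-BKO list only held 1.07% of the strongest bin of Wtap-BKO peaks and 23.4% of the weakest. The tissue label was checked against its markers, and 23 of the 27 brown adipocyte markers with a peak, Ucp1 among them, had peaks in both lists. In all, 55 of the 1699 genes were in a cell type list. In bulk tissue, more cells of a type, more RNA per cell and more m6A on the same RNA cannot be told apart from a list of peaks.

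Skeletal muscle markers stood mostly in the Wtap-BKO list only. Of 26 with a peak, 16 (61.5%, interval 42.5% to 77.6%) were in the Wtap-BKO list only, 10 in both lists and 0 in the Wtap flox/flox list only. Over all 26 markers the Wtap-BKO list held 39 peaks and the Wtap flox/flox list 11. Such totals are in part set by the rule, since genes in 1 list only add peaks to 1 side. On the 10 markers in both lists there were 17 and 11 peaks. Of the 10 in both, which included Acta1, Atp2a1 and Myh4, 4 had more peaks in the Wtap-BKO list, 6 the same number and 0 fewer. Tnnt3 had the strongest peak of the 16 and reached a log10 FDR of -31 at chr7:142498836-142505297, and Tnni2, fast troponin I, reached -9.2 with a 9.1-fold peak. Mb, the oxygen store myoglobin, had 1 peak at chr15:77022498-77022706 with 36-fold enrichment and a log10 FDR of -18.6. Pvalb, the calcium buffer parvalbumin of fast fibres, had a peak of 2.21-fold at -7.81 and another of 3.69-fold at -5.53. The giant sarcomere gene Ttn had peaks of 121 and 91 bases at -4.62 and -2.72, and the myosin heavy chain gene Myh2 had 1 peak at -2.32. Of the 16, 7 had a peak with an FDR under 1e-05. With that limit set on both lists, 13 of 14 muscle markers with a peak were in the Wtap-BKO list only, of which 7 were among the 16 and 6 had weaker Wtap flox/flox peaks. Interscapular fat lies on the muscles of the back, and the part of adhering muscle in these counts was not tested.

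T and NK lymphocyte markers also stood mostly in the Wtap-BKO list only. Of 21 with a peak, 14 (66.7%, interval 45.4% to 82.8%) were in the Wtap-BKO list only, 7 in both lists and 0 in the Wtap flox/flox list only. The lists held 33 and 11 of their peaks, and 16 and 11 on the 7 markers in both, where the rule does not set the numbers. The 14 included surface receptors (Cd2, Cd4, Cd5, Cd8a, Cd27, Thy1, Ncr1), cytotoxic granule proteins (Prf1, Gzmb), transcription factors (Eomes, Tcf7, Gata3) and the adaptor Skap1. Thy1, which fibroblasts and neurons also express, had the strongest peak, 331 bases at chr9:44047351-44047681, 3.98-fold and a log10 FDR of -8.34. Cd2, an adhesion receptor, had a 4.36-fold peak at -6.98, and Tcf7, a transcription factor of naive T cells, had a 14-fold peak at -5.71. The other 11 did not pass 1e-05. Prf1, which encodes the pore-forming perforin, had 2 peaks of 13.7-fold at -2.86 and -2.52, and Eomes had 2 of 91 bases at -1.92 and -1.79. With an FDR under 1e-05 required in both lists, all 9 markers with a peak were in the Wtap-BKO list only, of which 3 were among the 14 and 6 had weaker Wtap flox/flox peaks.

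Other immune markers were fewer. Of 7 B lymphocyte and plasma cell markers with a peak, 4 were in the Wtap-BKO list only and 0 in the Wtap flox/flox list only. These were Ighm, the immunoglobulin mu constant region, at chr12:113420857-113421126 with a log10 FDR of -18.6, the receptor chain Cd79b at -5.29, the adaptor Bank1 at -4.41 and the inhibitory receptor Btla at -3.55. A group of immunoglobulin chain genes, chosen after its values were seen, had 13 members with a peak, of which 9 were in the Wtap-BKO list only, 2 in the Wtap flox/flox list only and 2 in both. Ighg2c was the strongest of the 9 after Ighm, at -16.2, and the 6 variable segments stood between -1.73 and -3.44. All 3 granulocyte and mast cell markers with a peak were in the Wtap-BKO list only, led by the mast cell protease Mcpt4 with 15.5-fold at -9.8, then Cxcr2 and Csf3r with 1 peak each.

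Macrophage and monocyte markers were mostly shared. Of 26 with a peak, 6 (23.1%, interval 11% to 42.1%) were in the Wtap-BKO list only, 20 in both and 0 in the Wtap flox/flox list only, and the interval includes the 13.2% over all symbols. Mrc1, the mannose receptor of resident macrophages, had 3 peaks of 5.97-fold, 2.83-fold and 1.78-fold. Ly86 had peaks of 4.68-fold and 5.5-fold, and the lysosomal protease Ctss had a single peak spliced over 3 blocks at -6.24. Aif1, Laptm5 and the scavenger receptor Msr1 stood at -4.16, -3.97 and -4.73. Over all 26 markers the lists held 52 and 34 peaks, and on the 20 in both lists 41 and 34. Of the 6, 3 had a peak with an FDR under 1e-05. With that limit set on both lists, 10 of 22 were in the Wtap-BKO list only, of which 3 were among the 6 and 7 had weaker Wtap flox/flox peaks. For MHC class II, which presents antigen on macrophages, dendritic cells and B cells, 3 of 4 genes were in the Wtap-BKO list only. H2-Ab1 reached a log10 FDR of -24.9 at 1.57-fold, H2-Eb1 -18.4 at 3.03-fold and H2-DMb1 -10.2 at 8.04-fold.

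**Figure D5:**
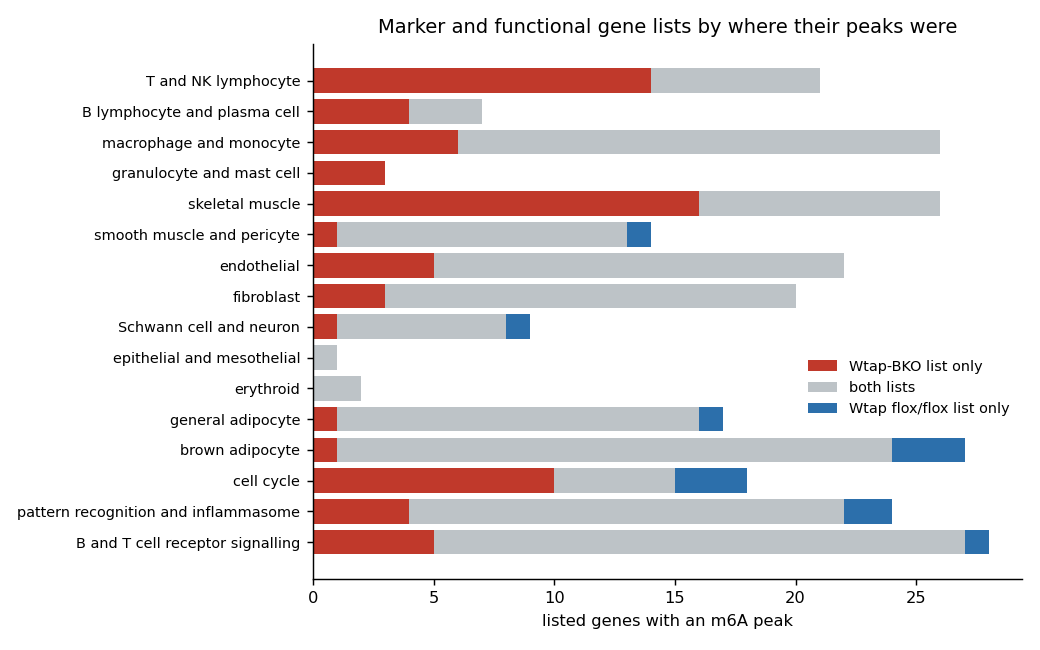
For each list of marker or functional genes, the bar counts members with an m6A peak in the Wtap-BKO list only (red), in both lists (grey) and in the Wtap flox/flox list only (blue). Skeletal muscle (16 of 26) and T and NK lymphocyte markers (14 of 21) show the longest red segments, and brown adipocyte markers are grey but for 1 red and 3 blue.

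Adipocyte markers were mostly in both lists. Of 27 brown adipocyte markers with a peak, 1 was in the Wtap-BKO list only, Sirt3, a mitochondrial deacetylase, with a 2.84-fold peak of 180 bases at a log10 FDR of -5.15. In the other direction, Elovl3, Otop1 and Slc27a2 were in the Wtap flox/flox list only. Over the brown adipocyte list there were 56 Wtap-BKO and 71 Wtap flox/flox peaks, and 55 and 65 on the 23 markers in both lists. The order was the reverse on markers in both lists for skeletal muscle, with 17 and 11 peaks, and for T and NK lymphocytes, with 16 and 11. Of 17 general adipocyte markers, 1 was in the Wtap-BKO list only, Retn, the adipokine resistin, with a 6.48-fold peak at -24.7. Another, Dgat2, was in the Wtap flox/flox list only, with a peak at -255. Endothelial markers gave 5 of 22 (22.7%, interval 10.1% to 43.4%), namely Emcn, Lyve1, Pdpn, Egfl7 and Tie1. They had 51 Wtap-BKO and 38 Wtap flox/flox peaks over the list, and 43 and 38 on markers in both lists. Fibroblast markers gave 3 of 20 (15%, interval 5.24% to 36%), namely Bgn, Fmod and Cthrc1. They had 48 and 28 peaks, and 43 and 28 on markers in both lists. Both intervals include the 13.2% over all symbols. Smooth muscle and pericyte markers gave 1 of 14 (Acta2) and Schwann cell and neuron markers 1 of 9 (Pmp22). Bgn, the proteoglycan biglycan, was the strongest of these at -15.6. Erythroid markers and the 1 epithelial or mesothelial marker with a peak were in both lists.

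By function, most of the listed cell cycle genes, 42 of 60, had no peak in either list. Of the 18 with a peak, 10 (55.6%, interval 33.7% to 75.4%) were in the Wtap-BKO list only. Another 5 were in both and 3 in the Wtap flox/flox list only. The strongest peaks of the 10 were mostly weak, with a median log10 FDR of -2.44. The spindle assembly factor Tpx2 had a 19-fold peak at chr2:152893702-152893942 with a log10 FDR of -10.4, and the others were weaker than 1e-05. Foxm1, a transcription factor of mitosis, had 2 peaks, of which the stronger stood at -3.64. Brca2, which works in homologous recombination, had 2 peaks that covered the same bases, both 12.1-fold at -2.12, a value that recurs across the list. Cenpe, Cenpf and Racgap1, which act in chromosome movement and cell cleavage, had 1 peak each at 16.7-fold, 15.9-fold and 13.7-fold. Their log10 FDR values were only -3.34, -3.13 and -2.52. These too are recurring values, found on 72, 94 and 121 peaks of the Wtap-BKO list.

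Some groups that hold genes of immune communication were in the Wtap-BKO list only more often than the 13.2% over all symbols. Others had intervals that include that share. Chemokines and their receptors gave 9 of 26 in the Wtap-BKO list only (34.6%, interval 19.4% to 53.8%) and 2 in the Wtap flox/flox list only. Besides Cxcl9, these were Ccl9 at -11.1, Cxcl14 at -10.1, Ccl8 at -5.51, the monocyte attractant Ccl2 at -5.27, Xcr1, Cxcr2, Ackr2 and Cxcl1. Xcr1, a receptor of cross-presenting dendritic cells, had a 509-base peak of 19.7-fold. Interleukins and their receptors gave 8 of 30, against 4 in the Wtap flox/flox list only, and the strongest was Il1rl2, a receptor of the IL-36 cytokines, at -10.9. C-type lectin domain genes gave 17 of 46 (37%, interval 24.5% to 51.4%), against 3 in the Wtap flox/flox list only, and these include matrix and endothelial genes such as Vcan, Col18a1 and Lyve1. The largest group was taken by a keyword for immunoglobulin-like domains in the gene descriptions. It gave 95 of 373 (25.5%, interval 21.3% to 30.1%), against 33 in the Wtap flox/flox list only. This group is not made of immune genes alone, as the keyword also took in Nfkb2, Arrb2, Arrdc2, Flna and Flnc. It takes in sarcomere proteins too, and Ttn is counted in it and in the muscle list. Interferon-induced and guanylate-binding genes gave 6 of 36, against 0. Pattern recognition genes gave 4 of 24 and B and T cell receptor signalling genes 5 of 28, with intervals of 6.68% to 35.9% and 7.88% to 35.6%, and the intervals of these last 3 groups include the share over all symbols. Among the 4 was Aim2, the DNA sensor of an inflammasome, with a 19.7-fold peak of 479 bases.

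Other families fell on either side of the 13.2% over all symbols. Above it were fibronectin type III genes, with 24 of 94 (25.5%, interval 17.8% to 35.2%), and genes of ion transport, with 10 of 34 (29.4%, interval 16.8% to 46.2%), against 6 and 8 in the Wtap flox/flox list only. SH3 genes gave 26 of 142 (18.3%), leucine-rich repeat genes 28 of 173 (16.2%), WD40 repeat genes 28 of 174 (16.1%) and EGF-like genes 15 of 102 (14.7%), all with intervals that include 13.2%. C2H2 zinc finger genes gave 30 of 528 (5.68%, interval 4.01% to 8.00%), against 51 in the Wtap flox/flox list only. Protein kinases gave 24 of 302 (7.95%, interval 5.4% to 11.6%) against 31, and genes with an RNA recognition motif 11 of 154 (7.14%) against 14. RING-type zinc finger genes gave 14 of 189 against 25, homeobox genes 3 of 65 against 4, and Hox genes 0 of 20 against 2. Solute carriers gave 20 of 176 (11.4%), with an interval of 7.48% to 16.9% that includes 13.2%, against 39 in the Wtap flox/flox list only. Among the zinc finger genes Zfpm2 and Zfp560 had the most peaks, 4 and 3, and Zfp385a had the most bases after Zfpm2, with 900 in 2 peaks of 2.7-fold and 2.72-fold.

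At the edge of the list, Cldnd1, Ift81 and F8 were the weakest genes taken by identifier order, each with a single peak of 91 bases at 9.1-fold and a log10 FDR of -1.35. Just outside it were genes whose only Wtap flox/flox peak was near the threshold. ENSMUSG00000097567 had a Wtap flox/flox peak at -1.38 and a Wtap-BKO peak at -5.06. Sdf2l1 had Wtap flox/flox and Wtap-BKO peaks at -1.4 and -8.15. Ahnak2 had a Wtap flox/flox peak at -1.4 and several Wtap-BKO peaks, the strongest at -3.77. A small change in the call of 1 weak Wtap flox/flox peak would move such genes across the line.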

How the data were processed

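MeRIP-seq covered iBAT of both genotypes at 8 weeks, with 1 IP and 1 input each (4 samples). The submitters' processing notes name fastp 0.19.11, BWA 0.7.12, HOMER 4.9.1 and GRCm38.p6; the study's methods name MACS2, while spliced blocks on Ensembl genes are a layout of another caller, and which made the lists is not settled. The deposited lists give, for each peak, the authors' p-value, the log10 FDR as a score in a column of its own (already under 0.05), and the fold enrichment of IP over input, a ratio within 1 genotype whose library scaling is not described. Their log10 p-value column was not used.

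Genes were matched by Ensembl identifier. Exonic length is the sum of blocks. Shared bases means at least 1 base. Shares have Wilson intervals, differences Newcombe intervals (Python 3.11.15, scipy 1.17.1, pandas 2.3.3). No test across genes was made, and with 1 pooled sample per genotype none was possible. The genes, marker lists, families and naming rule were chosen with earlier results of these data known. Named are the 20 genes with most peaks, 10 each by strength, longest peak and exonic bases, up to 6 per list, 3 on either side of the edge, and Wtap. The matching by identifier was checked on a copy of the Wtap-BKO list with genes taken out at random. That check cannot show whether an absence from the Wtap flox/flox list was called correctly. No sequence or motif was analysed here. Some listed genes are not reported here.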

Additional observations from a re-analysis of the deposited data

How the results depend on the processing

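No replicate could be left out and the depth is unknown. No paired analysis was possible because each genotype has 1 IP and 1 input and no test was made. Of 46 alternative values, 21 stayed near those reported. Requiring an FDR under 1e-05 of Wtap-BKO peaks alone left 531 genes in the Wtap-BKO list only, 7 skeletal muscle, 3 T and NK, 2 B lymphocyte and 3 macrophage markers, raised the share of genes with 1 peak to 90.4%, the median length to 210 bases and the share near the 3' end to 31.4%. Requiring it in both lists gave 9 T and NK, 2 B lymphocyte and 10 macrophage markers. At 1e-10 in both lists there were 909 genes, 7 skeletal muscle, 5 T and NK, 1 B lymphocyte and 0 brown adipocyte markers. At least 2 peaks per gene left 313 genes, 5 skeletal muscle, 3 T and NK, 1 B lymphocyte and 0 brown adipocyte markers. The median length was 179 bases by span and 175 for the longest peak per gene. With windows of 500 and 2000 bp, 13.9% and 40.2% of peaks were near the 3' end. Asking for no shared base with a Wtap flox/flox peak and matching by symbol moved no count of genes or markers by over 1.5 times. The cause of these changes was not tested.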
